A study of Rattus norvegicus with 13 samples.

Results

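The Rab genes encode the largest family of small GTPases that direct membrane traffic. They were followed here in rat cortical neurons and in axons that had been harvested apart from the cell bodies. Members were all probe sets whose single platform symbol is Rab followed by a number and at most 1 letter, which gave 97 probe sets for 56 genes, out of 20826 single-symbol probe sets for 14217 genes. The cells were cultured for 13 days in a microfluidic device that keeps axons in a compartment of their own, and every array pooled material from 3 such devices. Polyadenylated RNA was amplified in 2 rounds and hybridised to 13 GeneChip arrays. Uninjured axons were measured on 7 arrays from 3 culture batches, neurons of the neuronal compartment on 3 arrays, and regenerating axons on 3 arrays. Regenerating axons had been severed on day 11 and left to regrow for 2 days. The medium of all groups was Neurobasal E with B27. Neither the arrays of the neurons nor those of the regenerating axons are stated to come from separate cultures, so p-values measure only the spread between these arrays, which may be technical.

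Rab proteins cycle between a GTP-bound form on membranes and a GDP-bound form that is held in the cytosol. Exchange factors load GTP and thereby recruit a Rab to its membrane, GTPase-activating proteins end the active state, and effectors such as tethers and motor adaptors read it. In neurons, Rabs of the endosomes carry receptors and integrins along the axon, recycling Rabs return membrane to the growth cone surface, and secretory Rabs bring synaptic vesicles and new membrane to their release sites.

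The deposited value of a probe set is a ratio, and all values below are log2 of that ratio. A value of 0 is the level of the reference, and a value of 1 is a doubling. Uninjured arrays 1 to 3 and arrays 4 to 6 each have a row median of 1 in 100% of rows, so each of these sets was divided by its own median. Uninjured array 7 equals 1 in 100% of rows and carries no measurement, which leaves 6 uninjured arrays. The reference of the other arrays is not stated. The level of uninjured axons was assumed, and all directions against uninjured axons depend on this assumption. A ratio holds no signal level and therefore says nothing on whether a Rab transcript is detectable in axons at all. In bulk samples, fewer cells of a type and less RNA per cell cannot be told apart. Differences are given ± the standard error of a limma fit (SE, n = 3 arrays), with p-values adjusted over all 14217 genes by the method of Benjamini and Hochberg and a threshold of 0.05. The small number of arrays limits the precision of every value.

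Most of the Rab genes that differed were higher in neurons than in uninjured axons. Of the 56 genes, 28 (50%) passed as higher in neurons, where 36.9% of all genes did, and 6 (10.7%) passed as higher in uninjured axons, where 23% of all genes did. The other 22 did not pass. The median Rab difference was 0.70, compared with 0.22 for all genes. *Rab1a*, which drives transport from the endoplasmic reticulum (ER) to the Golgi, stood highest at 39.8-fold (5.31 ± 0.43, adjusted p = 1.61e-05). That value rests on 1 probe set, and 3 probe sets that the platform gives to *Rab1a* and *Rab1b* together, which the rule leaves out, had neuron means of -0.55, 1.48 and 2.03. *Rab2a*, which acts between the same organelles, was 32.7-fold higher (5.03 ± 0.33, adjusted p = 6.74e-06). *Rab18*, a Rab of the ER and of lipid droplets, was 21.8-fold higher (4.45 ± 0.34), and *Rab11a*, the main Rab of recycling endosomes, was 18.3-fold higher (4.19 ± 0.32). *Rab20*, which acts on maturing endosomes and phagosomes, was lowest in neurons, 2.40-fold below uninjured axons (-1.27 ± 0.17, adjusted p = 0.000269).

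**Figure D1:**
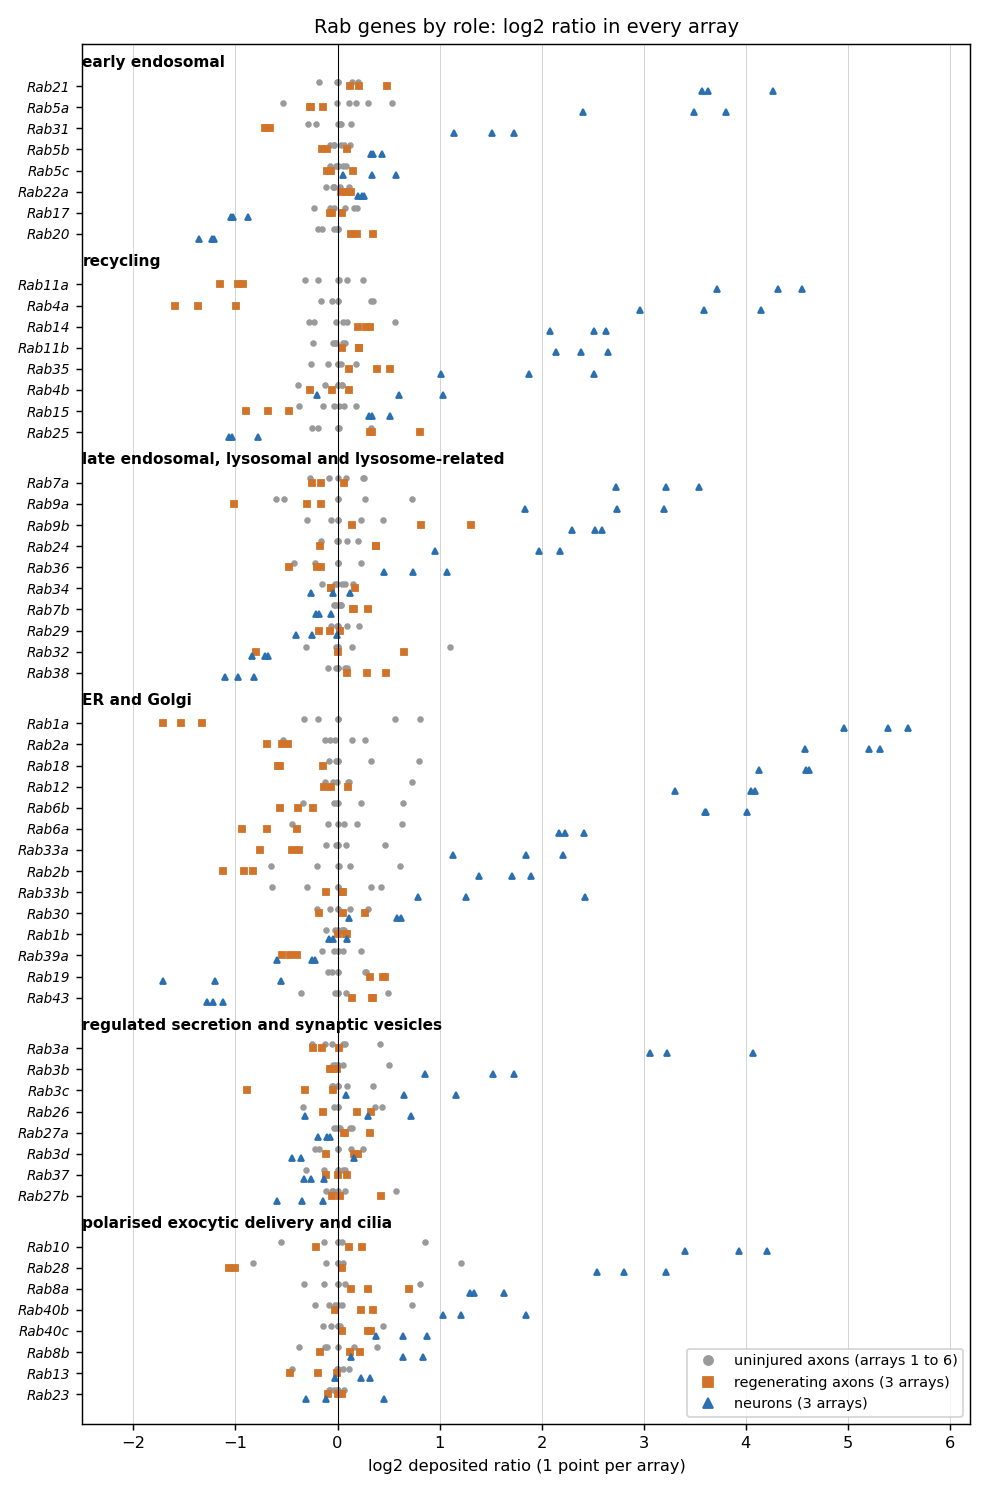
Log2 deposited ratio of each of the 56 Rab genes, 1 point per array, with genes grouped by role and ordered by their neuron difference. Grey circles are uninjured arrays 1 to 6, orange squares the 3 regenerating arrays and blue triangles the 3 neuron arrays. The neuron arrays of *Rab1a* lie between 4.96 and 5.59 and its regenerating arrays between -1.71 and -1.33.

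Neuron arrays were clear of all 6 uninjured arrays for 42 Rab genes (75%), compared with 72.1% of all genes. The neuron arrays were not alike in level. Neuron array 2 was the lowest of the 3 in 21 of the 28 Rab genes that were higher in neurons, and in 74.6% of all genes that were. The Rab medians of neuron arrays 1, 2 and 3 were 0.70, 0.42 and 1.05. The medians of all genes in the same arrays were 0.23, 0.11 and 0.33. Hybridisation controls (foreign transcripts spiked in at equal amounts) had a mean ratio of 0.356, 1.05 and 0.197 in the same 3 arrays. The mean was taken on the log2 scale over 18 probe sets. These controls read 1.16, 1.37 and 1.55 in the regenerating arrays and between 0.931 and 1.12 in the uninjured arrays. The arrays furthest below the reference in these controls had the higher Rab medians, and the part of this in the neuron differences was not tested. With every array shifted to the same median, 26 Rab genes were higher in neurons and 6 in uninjured axons. The shares of all genes called under this shift are not given here.

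Markers of neurons and most markers of astrocytes and oligodendrocytes were higher in the neuron arrays, while most microglial markers were higher in uninjured axons. All 8 neuronal markers were higher in the neuron arrays (median 3.29). So were 5 of 6 astrocyte markers and 3 of 4 measured oligodendrocyte markers, with medians of 2.84 and 2.67. The fourth oligodendrocyte marker, *Mog*, passed as higher in uninjured axons (-1.38). Of 7 microglial markers 6 were higher in uninjured axons (median -0.85), as were 3 of 5 fibroblast and vascular markers and 1 of 3 markers of dividing cells. The part of these other cells in the Rab differences was not tested.

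The promoters of 4 Rab genes from both sides of the neuron comparison are shown as RefSeq gives them for the GRCr8 assembly. Each window holds 300 bases, beginning before the gene start and ending after it. *Rab1a* has the largest neuron excess and *Rab4a* the smallest adjusted p in regenerating axons, while *Rab20* and *Rab17* were higher in uninjured axons. They were chosen after the values were seen. The windows lie at chr14:98623427-98623726 on the plus strand (*Rab1a*), chr19:68692831-68693130 on the plus strand (*Rab4a*), chr16:84721177-84721476 on the plus strand (*Rab20*) and chr9:99013983-99014282 on the minus strand (*Rab17*). Capitals mark CG dinucleotides, and each sequence runs 5′ to 3′ on the strand of the gene.
Rab1a: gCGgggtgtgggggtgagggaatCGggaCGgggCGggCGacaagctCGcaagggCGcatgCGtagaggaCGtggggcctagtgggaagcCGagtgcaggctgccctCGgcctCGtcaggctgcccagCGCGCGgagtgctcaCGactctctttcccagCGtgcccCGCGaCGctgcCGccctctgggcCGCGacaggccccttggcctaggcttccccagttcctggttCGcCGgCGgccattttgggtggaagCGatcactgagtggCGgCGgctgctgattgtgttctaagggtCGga
Rab4a: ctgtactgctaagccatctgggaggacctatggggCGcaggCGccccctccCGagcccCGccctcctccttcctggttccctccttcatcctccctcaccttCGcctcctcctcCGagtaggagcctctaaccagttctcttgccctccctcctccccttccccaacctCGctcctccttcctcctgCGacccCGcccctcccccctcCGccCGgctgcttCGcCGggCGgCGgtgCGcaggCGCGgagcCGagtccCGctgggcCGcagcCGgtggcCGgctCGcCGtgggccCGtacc
Rab20: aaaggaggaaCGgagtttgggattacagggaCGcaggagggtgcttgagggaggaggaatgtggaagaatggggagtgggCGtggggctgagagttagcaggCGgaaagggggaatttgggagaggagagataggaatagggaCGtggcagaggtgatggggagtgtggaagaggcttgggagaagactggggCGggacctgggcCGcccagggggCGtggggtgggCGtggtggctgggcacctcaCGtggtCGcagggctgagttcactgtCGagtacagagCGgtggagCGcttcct
Rab17: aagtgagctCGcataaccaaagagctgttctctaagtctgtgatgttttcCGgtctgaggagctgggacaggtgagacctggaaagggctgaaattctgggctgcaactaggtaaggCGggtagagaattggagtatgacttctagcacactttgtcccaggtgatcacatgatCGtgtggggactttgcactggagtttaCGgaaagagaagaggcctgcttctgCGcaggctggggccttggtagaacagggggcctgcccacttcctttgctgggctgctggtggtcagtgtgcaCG

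The *Rab1a* window holds 30 CG dinucleotides in its 300 bases and that of *Rab4a* holds 26, while those of *Rab20* and *Rab17* hold 14 and 7. Promoter windows matched 45 of the 56 Rab genes. Their median count of CG was 21, beside 19 for 11701 genes named on the array and 7 for all 33469 windows of the table. The 23 matched genes that were higher in neurons had a median of 24 and a median GC content of 66.0%. The 5 that were higher in uninjured axons had a median of 13 and 57.7%, and the 17 that did not pass had a median of 15. Single genes went the other way: *Rab14*, higher in neurons, has 4 CG in its window, the fewest of the 45, and *Rab43*, higher in uninjured axons, has 39. These are counts over windows and no test was made.

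**Figure D2:**
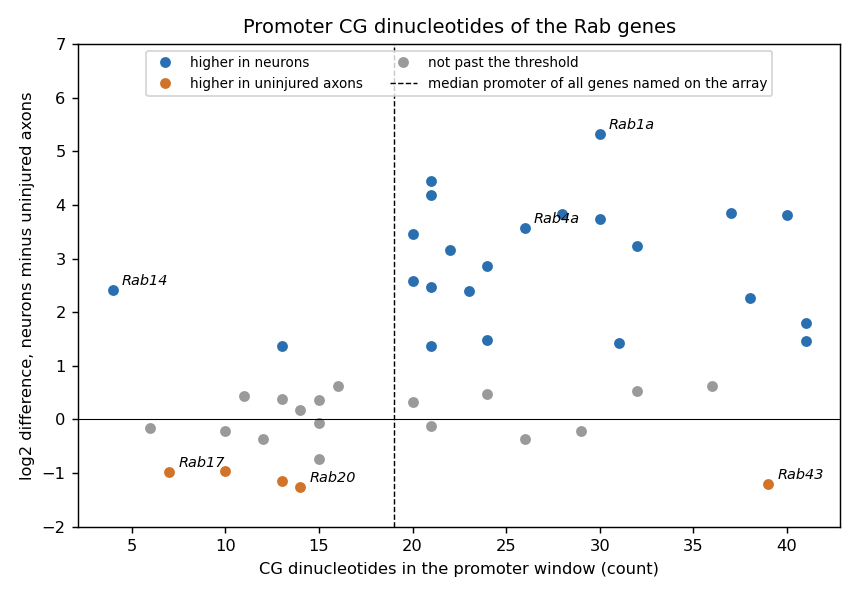
Number of CG dinucleotides in the 300-base promoter window (horizontal axis, count) against the log2 difference of neurons minus uninjured axons (vertical axis) for the 45 matched Rab genes. Blue marks genes higher in neurons, orange genes higher in uninjured axons and grey genes that did not pass, and the dashed line is the median of 19 over genes named on the array.

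Simple promoter letters were searched on both strands, with no overlap between the motifs. The GC-box letters GGGCGG occurred in 36 of 45 Rab windows (80.0%), compared with 57.5% of windows of genes named on the array. They were found in 21 of the 23 genes higher in neurons (91.3%) and in 2 of the 5 higher in uninjured axons (40.0%). The TATA-box letters TATAAA were in 0 of 45 windows, compared with 8.46%, and the E-box letters CACGTG were in 4 of 45 (8.89%), compared with 8.94%. A match is a description of letters and not a binding site.

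Rabs of the ER and Golgi held the most genes that were higher in neurons. Of 14 measured, 9 (64.3%) passed as higher in neurons and 2 (14.3%) as higher in uninjured axons, beside 36.9% and 23% of all genes, and the median difference was 1.70. The neuron arrays of *Rab1a* read 5.39, 4.96 and 5.59, while its uninjured arrays ran from -0.33 through a median of 0.00 to 0.81. *Rab2a* read 5.20, 4.58 and 5.31 in neurons and -0.53, -0.05 and 0.27 (lowest, median, highest) in uninjured axons. Both genes were far above every uninjured array in all 3 neuron arrays. *Rab18* read 4.62, 4.13 and 4.59 in neurons, with an uninjured range of -0.08 to 0.80 and a median of 0.00. *Rab12*, which also moves the transferrin receptor towards lysosomes, read 4.09, 3.31 and 4.05 (difference 3.81 ± 0.36, adjusted p = 3.56e-05). Its uninjured range was -0.12 to 0.73 with a median of 0.05, and the upper end is array 4 alone. *Rab6b*, the form of the Golgi Rab6 that is enriched in brain, read 3.60, 3.61 and 4.01 over an uninjured range of -0.34 to 0.64 (3.74 ± 0.32, adjusted p = 1.98e-05).

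The other members of this group differed less as gene values. *Rab6a*, the widely expressed form, read 2.23, 2.17 and 2.41 in neurons (2.27 ± 0.30, adjusted p = 0.000227). That value averages 2 probe sets, at 0.49, which did not pass by itself, and at 4.05, which did. The probe sets of *Rab6b* stood at 2.36 and 5.12. *Rab33a* and *Rab33b*, Golgi Rabs of which the second also binds autophagy proteins, had differences of 1.73 ± 0.36 and 1.49 ± 0.57. Neuron array 2 set them apart, because it was the lowest for *Rab33a* (1.84, 1.13 and 2.21) and the highest for *Rab33b* (1.26, 2.42 and 0.79). The *Rab33b* call (adjusted p = 0.0454) was lost when neuron array 1 (0.0609) or 2 (0.0540), or uninjured array 1 (0.0591), 4 (0.0522), 5 (0.0613) or 6 (0.0567), was left out. *Rab2b*, the relative of *Rab2a*, read 1.71, 1.39 and 1.89 (1.66 ± 0.40, adjusted p = 0.00586). *Rab30*, a Golgi Rab, *Rab1b* and *Rab39a* did not pass, at 0.44 ± 0.25, -0.01 ± 0.16 and -0.36 ± 0.21.

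*Rab43* and *Rab19*, which also localise to the Golgi, were the members of this group that were higher in uninjured axons. *Rab43* read -1.28, -1.12 and -1.22 in neurons and -0.36, 0.00 and 0.50 (lowest, median, highest) in uninjured axons. *Rab19* read -1.20, -0.55 and -1.71 in neurons and -0.09, 0.00 and 0.28 in uninjured axons. Neither gene overlapped between the groups, and the differences were -1.20 ± 0.28 (adjusted p = 0.00480) and -1.16 ± 0.37 (adjusted p = 0.0220).

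Recycling Rabs had the highest group median, 2.09. Of 8 measured genes, 5 (62.5%) were higher in neurons and 1 (12.5%) was higher in uninjured axons, beside 36.9% and 23% of all genes. *Rab11a* read 4.31, 3.71 and 4.55 in neurons, over an uninjured range of -0.32 to 0.25 with a median of 0.01. *Rab4a*, which returns cargo quickly from early endosomes, read 3.59, 2.96 and 4.15, over an uninjured range of -0.16 to 0.35 (3.56 ± 0.39, adjusted p = 7.84e-05). All neuron arrays of both genes were above all uninjured arrays. *Rab14*, which links the Golgi and early endosomes, read 2.51, 2.63 and 2.08 (2.41 ± 0.32), and *Rab11b* read 2.38, 2.14 and 2.65 (2.39 ± 0.22). *Rab35*, a Rab of fast recycling and of actin remodelling, spread more widely at 1.88, 1.02 and 2.51 (1.80 ± 0.44, adjusted p = 0.00626). *Rab4b* (0.48 ± 0.38) and *Rab15* (0.39 ± 0.22) did not pass. *Rab25*, a relative of *Rab11a* best known from epithelia, read -0.77, -1.06 and -1.03 in neurons and -0.25, 0.00 and 0.33 in uninjured axons, a difference of -0.96 ± 0.24 (adjusted p = 0.00703).

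Early endosomal Rabs were called about as often as genes in general. Of 8 measured, 3 (37.5%) were higher in neurons, 2 (25%) were higher in uninjured axons and 3 did not pass, where 36.9% and 23% of all genes were called. Their median was 0.35. *Rab21*, which takes part in the traffic of integrins, read 3.57, 3.63 and 4.27 in neurons and -0.19, 0.00 and 0.20 in uninjured axons (3.82 ± 0.27, adjusted p = 9.56e-06). *Rab5a*, which directs the fusion of early endosomes, read 3.49, 2.41 and 3.80 (3.23 ± 0.50, adjusted p = 0.000565). *Rab31*, which moves cargo between the trans-Golgi and endosomes, read 1.51, 1.14 and 1.73 (1.46 ± 0.24, adjusted p = 0.000756). The other forms of Rab5, *Rab5b* at 0.37 ± 0.16 and *Rab5c* at 0.32 ± 0.21, did not pass, nor did *Rab22a*, an early endosomal Rab, at 0.23 ± 0.16. The *Rab5b* value averages 5 probe sets that ran from -1.24 to 2.95, and the last of these passed by itself (adjusted p = 3.93e-05). *Rab20* read -1.21, -1.23 and -1.36 in neurons and -0.19, -0.02 and 0.00 in uninjured axons. *Rab17*, known from recycling in epithelia, read -0.87, -1.04 and -1.02 in neurons and -0.23, 0.02 and 0.19 in uninjured axons (-0.98 ± 0.20, adjusted p = 0.00292). Both genes lay below every uninjured array in all 3 neuron arrays. The *Rab17* call was lost when its probe set with the highest mean stood for the gene (-0.41, adjusted p = 0.137).

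Late endosomal and lysosomal Rabs split evenly between genes that were higher in neurons and genes near or below 0. Of 10 measured, 5 (50%) were higher in neurons and 1 (10%) was higher in uninjured axons, beside 36.9% and 23% of all genes. The other 4 did not pass, and the median was 0.35. *Rab7a*, which leads late endosomes to the lysosome and carries neurotrophin receptors back along axons, read 3.21, 2.73 and 3.54 in neurons (3.16 ± 0.31, adjusted p = 4.36e-05). *Rab9a*, which returns receptors from late endosomes to the Golgi, read 2.74, 1.83 and 3.20 (2.59 ± 0.57, adjusted p = 0.00384), and *Rab9b* read 2.59, 2.52 and 2.30 (2.47 ± 0.27, adjusted p = 8.51e-05). *Rab24*, linked to autophagy, read 2.18, 0.96 and 1.97 (1.70 ± 0.39, adjusted p = 0.00456). *Rab36* read 0.74, 0.46 and 1.07, a difference of 0.76 ± 0.28 (adjusted p = 0.0411). The *Rab36* call was lost without neuron array 1 (adjusted p = 0.0725) or 3 (0.0865), and without uninjured array 2 (0.0544), 3 (0.0522) or 4 (0.0527). *Rab34*, *Rab7b*, *Rab29* and *Rab32* did not pass, with differences between -0.06 and -0.74. *Rab38*, which with *Rab32* serves melanosomes and other lysosome-related organelles, read -0.98, -0.81 and -1.10 in neurons and -0.09, 0.00 and 0.09 in uninjured axons (-0.97 ± 0.18, adjusted p = 0.00143).

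Of the 8 Rabs of regulated secretion and synaptic vesicles, 2 (25%) were higher in neurons, compared with 36.9% of all genes, and 6 did not pass, with a median of 0.06. *Rab3a*, the main Rab of synaptic vesicles, read 3.23, 3.06 and 4.07 in neurons, over an uninjured range of -0.25 to 0.41 (3.45 ± 0.37, adjusted p = 7.17e-05). *Rab3b* read 1.52, 0.86 and 1.73 (1.37 ± 0.33, adjusted p = 0.00565), over an uninjured range of -0.04 to 0.50 whose upper end is array 5 alone. *Rab3c* read 0.65, 0.09 and 1.16, and its difference of 0.63 ± 0.34 did not pass (adjusted p = 0.132). *Rab3d*, the form known from exocrine and endocrine granules, read -0.45, -0.36 and 0.16 (-0.22 ± 0.27). *Rab27b*, which docks secretory granules and exosome-bearing bodies, read -0.15, -0.60 and -0.35 (-0.37 ± 0.27, adjusted p = 0.267), and its relative *Rab27a* stood at -0.12 ± 0.16. *Rab26* and *Rab37*, both Rabs of secretory granules, stood at 0.23 ± 0.39 and -0.24 ± 0.20.

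Of the 8 Rabs of polarised exocytic delivery and cilia, 4 (50%) were higher in neurons, compared with 36.9% of all genes. The other 4 did not pass, and the median was 0.999. *Rab10*, which delivers membrane to the growing axon and to the cell surface, read 3.93, 3.40 and 4.20 in neurons and -0.55, 0.00 and 0.86 in uninjured axons (3.84 ± 0.46, adjusted p = 0.000137). *Rab28*, known from cilia, read 2.81, 3.22 and 2.54 (2.86 ± 0.59, adjusted p = 0.00278). *Rab8a*, which serves exocytic delivery and ciliary growth, read 1.63, 1.33 and 1.30 (1.42 ± 0.34, adjusted p = 0.00590). Its uninjured range ran from -0.33 to 0.81, with array 5 apart at the top. *Rab40b*, an unusual Rab with a ubiquitin-ligase box, read 1.21, 1.03 and 1.85 (1.37 ± 0.38, adjusted p = 0.0113), and its relative *Rab40c* stood at 0.63 ± 0.25 (adjusted p = 0.0527). *Rab8b* (0.54 ± 0.33), *Rab13* (0.18 ± 0.23) and *Rab23*, a regulator of Hedgehog signalling at cilia (0.01 ± 0.26), did not pass.

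Several of the genes that did not pass were called when neuron array 2 was left out. Without it, 33 Rab genes were higher in neurons, and *Rab3c* (0.90, adjusted p = 0.0108), *Rab4b* (0.82, 0.0160), *Rab40c* (0.76, 0.0193), *Rab30* (0.60, 0.0318), *Rab5c* (0.45, 0.0420) and *Rab8b* (0.74, 0.0491) passed. *Rab40c* also passed without uninjured array 4 (adjusted p = 0.0321), and *Rab32* passed as higher in axons without uninjured array 1 (-0.74, adjusted p = 0.0152). The hybridisation controls read 1.05 in neuron array 2, and 0.356 and 0.197 in neuron arrays 1 and 3, which remained without it. The shares of all genes called with an array left out are not given here.

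The 6 Rab genes on the axon side all lay in a narrow band, between -1.27 and -0.96. Genes for smell, taste and pheromone receptors ranged across and beyond this band, from -1.61 to 0.20 with a median of -0.98. Of 29 measured, 21 passed as higher in uninjured axons, where 23% of all genes did, and 8 did not pass. Without a signal level, a transcript that is higher in axons and a background that reads higher on those arrays cannot be told apart for *Rab20*, *Rab43*, *Rab19*, *Rab17*, *Rab38* and *Rab25*.

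Close relatives had very different values in neurons. *Rab1a* stood at 5.31 and *Rab1b* at -0.01, and their neuron arrays did not overlap (4.96 to 5.59 compared with -0.09 to 0.09). As gene values, *Rab2a* exceeded *Rab2b* (5.03 and 1.66), *Rab4a* exceeded *Rab4b* (3.56 and 0.48), and *Rab11a* exceeded *Rab11b* (4.19 and 2.39). The neuron arrays of these gene values did not overlap in any of these pairs. However, the higher probe set of *Rab11b*, at 3.78, lay between those of *Rab11a*, at 3.65 and 4.73. Its neuron arrays overlapped those of the lower *Rab11a* probe set. *Rab5a* (3.23) exceeded *Rab5b* (0.37) and *Rab5c* (0.32) as gene values, but 1 probe set of *Rab5b*, at 2.95, lay between those of *Rab5a*, at 2.36 and 4.11. The *Rab1b* value is likewise a mean of 4 probe sets, at 0.77, 0.85, -0.98 and -0.69. The Rab3 forms ran in the order *Rab3a* (3.45), *Rab3b* (1.37), *Rab3c* (0.63) and *Rab3d* (-0.22), where *Rab3b* and *Rab3c* overlapped in their neuron arrays, as did *Rab3c* and *Rab3d*. *Rab9a* and *Rab9b* overlapped as well (2.59 and 2.47), as did *Rab33a* and *Rab33b* (1.73 and 1.49). A ratio compares 1 probe set between samples, so these values do not rank the relatives by abundance, and no test between genes was made.

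**Figure D3:**
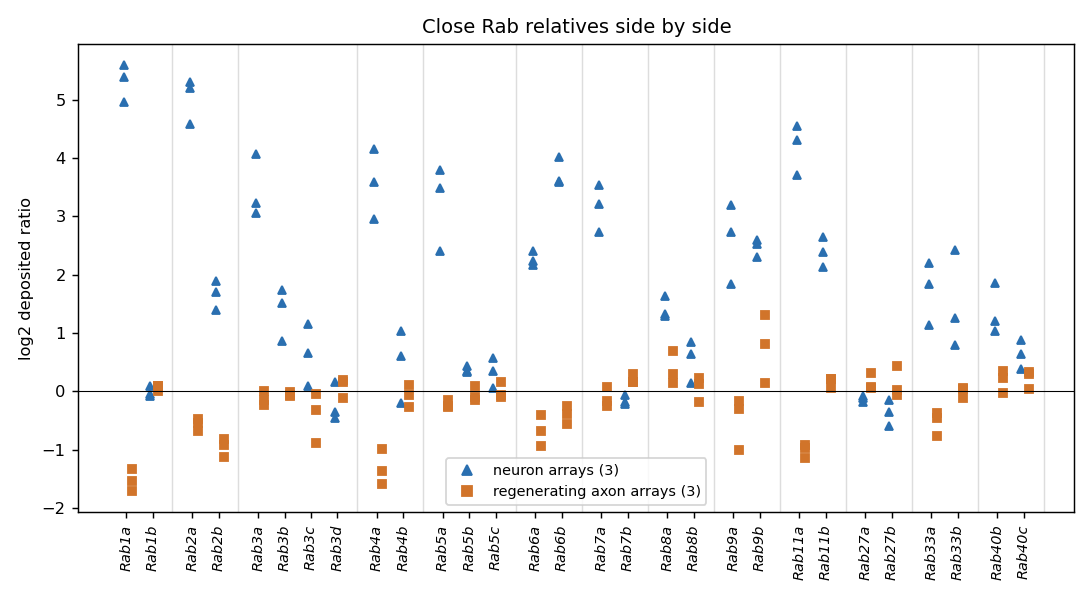
Log2 deposited ratio (vertical axis) of 29 Rab genes with close relatives on the array, in the 3 neuron arrays (blue triangles) and the 3 regenerating arrays (orange squares). The neuron arrays of *Rab1a* lie between 4.96 and 5.59 and those of *Rab1b* between -0.09 and 0.09.

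Probe sets of the same gene often disagreed. Of the 56 genes, 29 had 1 probe set and 27 had several, up to 5. The gap between the highest and lowest neuron difference of a gene had a median of 1.75 and exceeded 1 in 18 of the 27. Taken singly, 48 of the 97 probe sets were higher in neurons, where 34.2% of all single-symbol probe sets were, and 16 were higher in uninjured axons, where 21.7% were. In 10 genes the signs were mixed, and in 4 genes separate probe sets passed in opposite directions. These 4 were *Rab1b* (0.77 and 0.85 in 2 probe sets, -0.98 and -0.69 in the other two), *Rab5b* (2.95 in 1 and -1.24 in another), *Rab15* (1.78 and -0.57) and *Rab34* (0.85 and -0.97). *Rab31* also joined unlike probe sets, at 3.40 and -0.48, and the probe sets of *Rab14* ran from 0.17 to 4.74. The gap was 0.39 for *Rab2a* and 0.18 for *Rab12*, whose probe sets both passed. The errors of the gene values do not cover these gaps. Whether a probe set of 1 relative also binds the transcript of another was not tested.

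**Figure D4:**
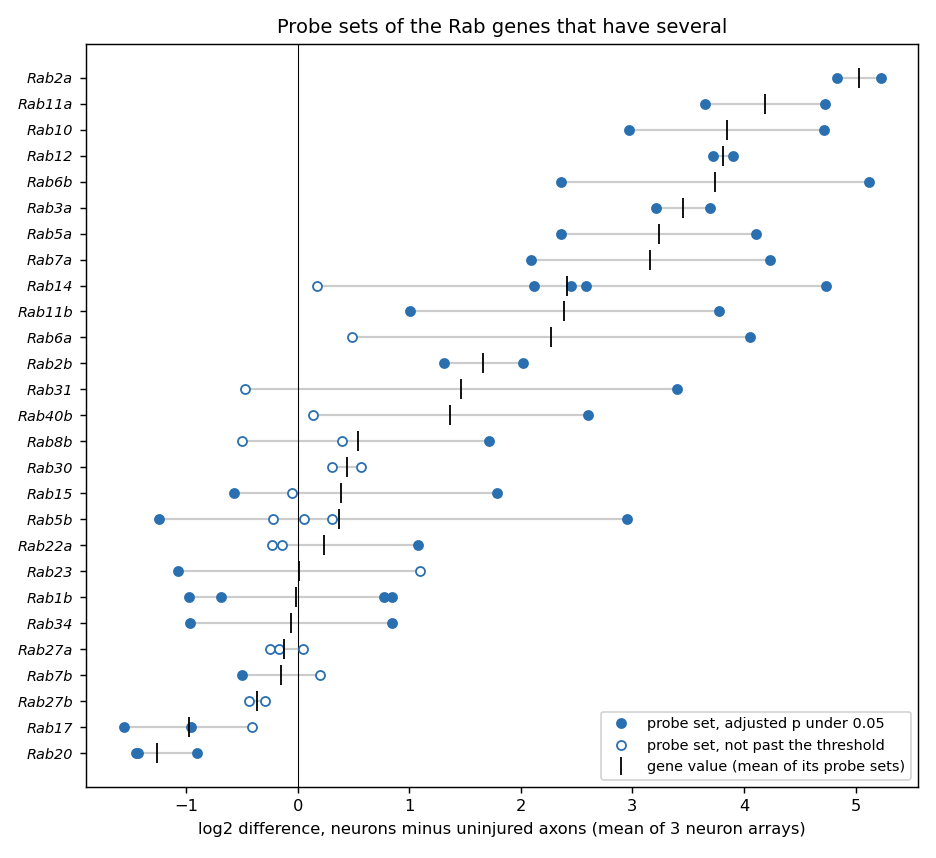
Log2 difference of neurons minus uninjured axons (horizontal axis) for each probe set of the 27 Rab genes that have several. Filled points passed the threshold over all single-symbol probe sets, open points did not, and the short vertical line is the gene value. *Rab5b* and *Rab14* have the widest gaps, and *Rab12* has both probe sets close together.

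Regenerating axons were set against uninjured axons to find transcripts that differ 2 days after the cut. No Rab gene passed it in limma, where 0.0352% of all genes passed as higher and 0.689% as lower. At an unadjusted p under 0.05, 9 Rab genes (16.1%) were on the lower side, compared with 8.77% of all genes, and 0 were on the higher side, compared with 3.67%. The 9 were *Rab4a*, *Rab11a*, *Rab31*, *Rab1a*, *Rab15*, *Rab39a*, *Rab2b*, *Rab2a* and *Rab33a*. The median Rab difference was -0.01 and that of all genes 0.02. Regenerating arrays were clear of all uninjured arrays for 13 Rab genes (23.2%), compared with 22.8% of all genes.

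*Rab4a* had the smallest adjusted p. Its regenerating arrays read -0.99, -1.59 and -1.37, all below the lowest of the 6 uninjured arrays, which ran from -0.16 through a median of 0.00 to 0.35. The difference was -1.32 ± 0.27 (adjusted p = 0.0631), and without regenerating array 1 it passed at -1.48 (adjusted p = 0.0177). Other recycling Rabs did not share this level: *Rab4b* read 0.11, -0.27 and -0.06 and *Rab11b* read 0.21, 0.05 and 0.21. *Rab14* read 0.21, 0.32 and 0.28 as a mean of 5 probe sets. Of these, 1 read 0.80, 1.32 and 1.31, above all its uninjured arrays, and did not pass singly (1.14 ± 0.32, limma adjusted p = 0.157). The differences of the others ran from -0.20 to 0.21. *Rab11a* came closest to *Rab4a*, with regenerating arrays at -0.92, -0.97 and -1.15, below an uninjured range of -0.32 to 0.25. Its difference of -1.02 ± 0.22 did not pass (adjusted p = 0.0732), and passed without uninjured array 1 (adjusted p = 0.0486). Both of its probe sets were low, at -0.98 and -1.05.

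*Rab31* had closely grouped regenerating arrays, at -0.69, -0.71 and -0.66, below an uninjured range of -0.29 to 0.13 with a median of 0.01 (-0.69 ± 0.16, adjusted p = 0.0914). The value comes mainly from the probe set that was also higher in neurons (-1.18), while the other stood at -0.19. *Rab1a* had the lowest difference of all Rab genes, -1.52 ± 0.40, with regenerating arrays at -1.71, -1.33 and -1.53 (adjusted p = 0.120). Its uninjured arrays spread from -0.33 to 0.81, more than those of *Rab4a*, and none reached down to the regenerating arrays. *Rab1b*, its close relative, read 0.09, 0.01 and 0.09.

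*Rab15*, which slows recycling from early endosomes, read -0.68, -0.47 and -0.90, below an uninjured range of -0.37 to 0.18 (-0.68 ± 0.23, adjusted p = 0.223). Of its 3 probe sets 1 stood at -1.70 and the others at -0.10 and -0.24. *Rab39a*, linked to endosomal and Golgi traffic, read -0.54, -0.46 and -0.39, below an uninjured range of -0.16 to 0.23 (-0.46 ± 0.17, adjusted p = 0.277). Other ER and Golgi Rabs with regenerating arrays below 0 included *Rab2b* (-0.83, -1.12 and -0.91), *Rab2a* (-0.48, -0.69 and -0.54), *Rab6a* (-0.69, -0.40 and -0.94) and *Rab33a* (-0.45, -0.76 and -0.38). *Rab2a* and *Rab6a* overlapped the uninjured arrays. Single probe sets of *Rab2b* (-1.80) and *Rab2a* (-1.27) were well below the other of each pair (-0.10 and 0.12). The ER and Golgi group had a median of -0.41, the lowest of the 6 role groups, whose other medians lay between -0.02 and 0.05.

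On the higher side the smallest p belonged to *Rab19*, whose regenerating arrays read 0.44, 0.32 and 0.47, above an uninjured range of -0.09 to 0.28 (0.41 ± 0.19, adjusted p = 0.439). *Rab9b* read 0.14, 0.82 and 1.31 and overlapped the uninjured arrays, which ran from -0.30 to 0.45 (0.75 ± 0.40, adjusted p = 0.501). *Rab25* read 0.31, 0.34 and 0.81 (0.49 ± 0.26, adjusted p = 0.501), with the highest uninjured array at 0.33. *Rab38* read 0.29, 0.47 and 0.09, *Rab35* read 0.51, 0.11 and 0.38, and *Rab7b*, which acts between late endosomes and the Golgi, read 0.30, 0.15 and 0.16, with adjusted p-values from 0.588 to 0.658. Of these, *Rab38* stood just above its highest uninjured array, *Rab7b* was clear of its uninjured range of -0.03 to 0.04, and *Rab35* overlapped.

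**Figure D5:**
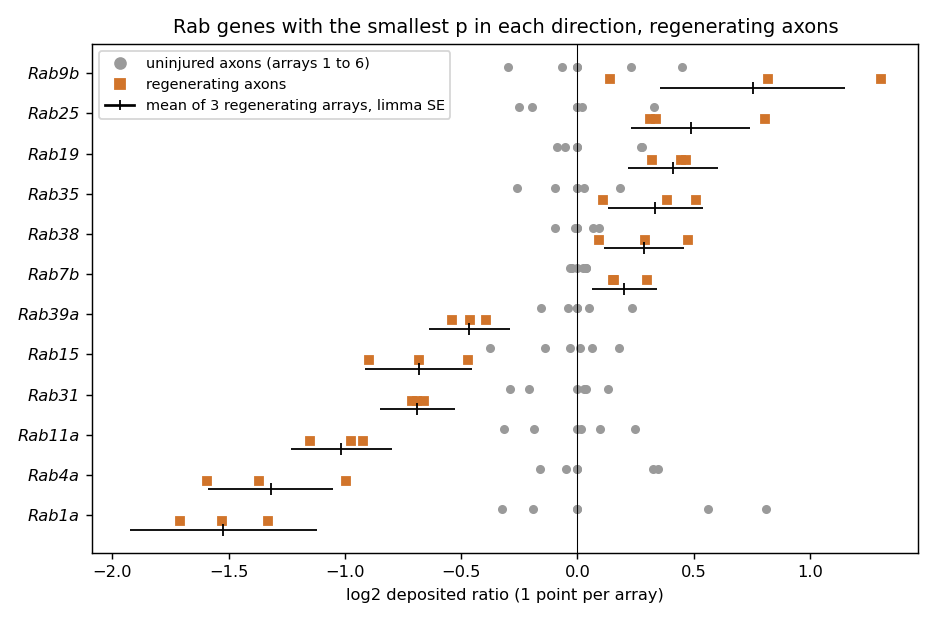
Log2 deposited ratio in regenerating axons (orange squares, 3 arrays) and uninjured axons (grey circles, arrays 1 to 6) for the 6 Rab genes with the smallest p on each side. Black lines give the mean of the regenerating arrays and the limma standard error, and the regenerating arrays of *Rab1a*, *Rab4a*, *Rab11a*, *Rab31*, *Rab15* and *Rab39a* lie below all uninjured arrays.

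The synaptic vesicle and exocytic Rabs of regenerating axons were not clear of their uninjured arrays. *Rab3a* read -0.24, 0.01 and -0.15 and *Rab3b* -0.08, 0.00 and -0.06. *Rab3c* read -0.32, -0.05 and -0.89 and *Rab3d* 0.20, -0.11 and 0.16. *Rab27b* read -0.06, 0.03 and 0.43, over an uninjured range of -0.12 to 0.58 in which array 1 is apart at the top. *Rab10* read 0.12, 0.24 and -0.21 and *Rab8a* 0.14, 0.70 and 0.30. *Rab5a* (-0.27, -0.15 and -0.26) and *Rab7a* (-0.16, -0.25 and 0.07) overlapped theirs as well.

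The result for regenerating axons turns on the error given to the reference. Its error was set to that of 1 array. With the error of a mean of 3 arrays, *Rab1a*, *Rab4a*, *Rab11a*, *Rab15*, *Rab31* and *Rab39a* passed as lower, with adjusted p-values from 0.00447 to 0.0441. With no error for the reference, 10 passed as lower and 5 as higher. A smaller reference error narrows the error of every gene, and the shares of all genes under these settings are not given here. Of neuronal markers, 3 of 8 had an unadjusted p under 0.05 on the lower side in regenerating axons, with a list median of -0.80, and 0 of all markers passed. The part of this in the Rab values was not tested.

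A direct comparison of regenerating axons with neurons holds if both had the same reference. The regenerating axon arrays were lower in 31 Rab genes (55.4%), where 44.2% of all genes were, and higher in 8 (14.3%), where 31.3% were, and 17 did not pass. The median Rab difference was -1.04, beside -0.23 for all genes. *Rab1a* had the largest difference, 114-fold lower in regenerating axons (-6.84 ± 0.20, adjusted p = 4.06e-07), again from its 1 probe set. The 3 probe sets shared with *Rab1b* differed by 0.27, -1.44 and -1.55 between the means of regenerating axons and neurons. It was followed by *Rab2a* (-5.60 ± 0.21), *Rab11a* (-5.21 ± 0.22), *Rab18* (-4.88 ± 0.20) and *Rab4a* (-4.88 ± 0.30). The 2 comparisons with neurons share the neuron arrays, so the values are given side by side and are no independent support for each other. Groups were clear of each other for 43 Rab genes (76.8%), compared with 79.8% of all genes.

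Of the genes not yet given for regenerating axons, *Rab18* read -0.14, -0.58 and -0.57, *Rab6b* -0.24, -0.39 and -0.56, and *Rab12* -0.07, -0.14 and 0.10 there. Their differences from neurons were -4.88, -4.14 and -3.85. *Rab21* read 0.12, 0.21 and 0.49 and stood at -3.55 ± 0.22. *Rab28* read 0.04, -1.06 and -1.005 and stood at -3.53 ± 0.32, with regenerating array 1 apart from the other two. *Rab9a* read -0.30, -0.16 and -1.01 (-3.08 ± 0.37), and *Rab24* read -0.17, 0.38 and 0.38 (-1.51 ± 0.33). *Rab33b* read -0.11, 0.04 and 0.05 (-1.50 ± 0.37), *Rab36* read -0.16, -0.47 and -0.20 (-1.04 ± 0.19), and *Rab40b* read 0.35, -0.02 and 0.23 (-1.18 ± 0.23). All of these passed as lower in regenerating axons.

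*Rab15*, *Rab3c* and *Rab5b* also passed as lower in regenerating axons. *Rab15* stood at -1.07 ± 0.16 (adjusted p = 0.000508), which became -0.05 (adjusted p = 0.832) when its probe set with the highest mean stood for the gene. *Rab3c* stood at -1.05 ± 0.31 (adjusted p = 0.0159), and was not past the threshold without regenerating array 3 (-0.81, adjusted p = 0.0592). *Rab5b* read -0.10, 0.09 and -0.15 in regenerating axons and 0.33, 0.35 and 0.43 in neurons, and stood at -0.42 ± 0.13 (adjusted p = 0.0213). Its call was lost with arrays shifted to the same median (-0.21, adjusted p = 0.198), without neuron array 1 (adjusted p = 0.0559) or 3 (0.0561), and without regenerating array 1 (0.0658) or 3 (0.0689).

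Among the 8 genes that were higher in regenerating axons than in neurons, *Rab19* stood at 1.57 ± 0.27, *Rab20* at 1.49 ± 0.13, *Rab43* at 1.48 ± 0.13 and *Rab25* at 1.44 ± 0.18. *Rab38* followed at 1.25 ± 0.16 and *Rab17* at 0.95 ± 0.13. *Rab20* read 0.34, 0.13 and 0.19 in regenerating axons, above its highest uninjured array at 0.00. *Rab43* (0.33, 0.35 and 0.14) and *Rab17* (-0.07, 0.04 and -0.06) overlapped their uninjured arrays. *Rab7b* (0.36 ± 0.13, adjusted p = 0.0363) and *Rab27b* (0.50 ± 0.19, adjusted p = 0.0414) differed by little. The *Rab7b* call was lost without neuron array 1 (adjusted p = 0.119) or 2 (0.0523) and without regenerating array 1 (0.115), 2 (0.0666) or 3 (0.0646). That of *Rab27b* was lost without neuron array 2 (adjusted p = 0.0908) or 3 (0.0778) and without regenerating array 2 (0.0659) or 3 (0.135). Of the genes that did not pass, *Rab5c*, *Rab30*, *Rab4b*, *Rab40c* and *Rab8b* passed as lower without neuron array 2, with adjusted p-values of 0.0257, 0.0159, 0.00290, 0.0152 and 0.00657. *Rab13* passed as lower without neuron array 2 (0.0291) or regenerating array 3 (0.0469). *Rab32* passed as higher without regenerating array 1 (1.07, adjusted p = 0.00517) and *Rab3d* without neuron array 3 (0.48, adjusted p = 0.0342). With all arrays shifted to the same median, 13 Rab genes were higher in regenerating axons and 30 lower. The shift moves every gene, and the shares of all genes called under it are not given here.

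Across the uninjured arrays the Rab genes spread slightly more than genes in general. The median range within arrays 1 to 3 was 0.32 for Rab genes and 0.28 for all genes, and within arrays 4 to 6 it was 0.39 and 0.34. The Rab genes that were higher in neurons spread more, with medians of 0.40 and 0.59, than the other Rab genes, with 0.23 and 0.22. *Rab32* had the widest range in arrays 1 to 3, at 1.12, and *Rab28* in arrays 4 to 6, at 2.03. Within arrays 4 to 6, array 4 was the one farthest from 0 in 28 of the 56 Rab genes. No test was made of these ranges.

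Genes that regulate Rabs or read their state were also compared. Of 159 listed regulators and effectors, 136 were measured, of which 65 (47.8%) passed as higher in neurons, where 36.9% of all genes did, and 17 (12.5%) as higher in uninjured axons, where 23% did. The other 54 passed in neither direction, and the median was 0.54, compared with 0.22 for all genes. For the 17 as well, a transcript that is higher in axons and a background that reads higher there cannot be told apart. With arrays shifted to the same median the split was 55 and 27, and the shares of all genes under this shift are not given here. In regenerating against uninjured axons 0 passed in limma, and at an unadjusted p under 0.05 the 7 higher (5.15%) and 11 lower (8.09%) were near the shares over all genes, 3.67% and 8.77%. Compared with neurons, 75 (55.1%) were lower in regenerating axons and 26 (19.1%) were higher, compared with 44.2% and 31.3% of all genes, and 35 did not pass.

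Genes for prenylation and membrane extraction give Rabs their lipid anchor and carry them through the cytosol. Of 6 measured, 4 (66.7%) were higher in neurons and 1 (16.7%) in uninjured axons, beside 36.9% and 23% of all genes. *Gdi2*, which extracts inactive Rabs from membranes, stood at 4.33 ± 0.32, with neuron arrays at 4.44, 4.01 and 4.53. *Rabac1*, which returns Rabs to membranes, stood at 3.15 ± 0.66. *Rabac1* read -1.11, -2.43 and -2.40 in regenerating axons, a difference from uninjured axons of -1.98 ± 0.62 that did not pass (adjusted p = 0.180). Its uninjured arrays ran from -1.43, in array 1, to 0.10 and overlapped the regenerating arrays. *Chm*, the escort protein that presents new Rabs for prenylation, was on the axon side at -0.74 ± 0.23 (adjusted p = 0.0222). That value averages 2 probe sets with unlike neuron means, -1.37 and -0.10. Against neurons, regenerating axons stood at -5.13 for *Rabac1*, -5.05 for *Gdi2* and 0.85 for *Chm*.

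Of 39 measured exchange factors 17 (43.6%) were higher in neurons, near the 36.9% of all genes, and 4 (10.3%) in uninjured axons, compared with 23%. *Trappc2* and *Trappc6b*, subunits of the TRAPP complexes that activate Rab1, stood at 4.18 ± 0.56 and 3.72 ± 0.54 in neurons. The regenerating arrays of *Trappc2* read -1.04, -1.34 and -1.05, which did not pass (adjusted p = 0.338). *Rin1*, an exchange factor for Rab5, was higher in axons at -1.43 ± 0.26 (limma adjusted p = 0.00161). *Dennd2d* was close to the threshold, at -0.80 ± 0.31 (adjusted p = 0.0449). Against neurons, regenerating axons were higher in *Rin1* (1.64) and *Dennd2c* (1.15) and lower in *Trappc2* (-5.32) and *Trappc6b* (-4.11).

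Of 32 GTPase-activating proteins 15 (46.9%) were higher in neurons and 2 (6.25%) in uninjured axons, beside the same 36.9% and 23%. *Tbc1d14*, which acts on recycling endosomes in autophagy, stood at 3.57 ± 0.28 and *Tbc1d9* at 3.16 ± 0.20. *Tbc1d2*, which acts on Rab7, was on the axon side at -0.73 ± 0.18 (limma adjusted p = 0.00612). *Tbc1d7*, a subunit of the tuberous sclerosis complex, passed there narrowly at -0.53 ± 0.21 (adjusted p = 0.0486). Against neurons, regenerating axons were higher in *Tbc1d2* (0.96) and *Tbc1d7* (0.80) and lower in *Tbc1d14* (-3.54) and *Sgsm1* (-3.17).

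Of 59 measured effectors 29 (49.2%) were higher in neurons and 10 (16.9%) in uninjured axons, beside 36.9% and 23% of all genes. *Ehbp1*, which ties Rab8 and Rab10 membranes to actin, stood at 3.13 ± 0.31, and *Vps41*, a subunit of the HOPS tether of late endosomes, at 2.79 ± 0.22. *Mlph*, which links Rab27a to myosin on melanosomes, and *Rab11fip1*, an effector of Rab11, were higher in uninjured axons at -1.42 ± 0.25 and -1.30 ± 0.28. *Fyco1*, which couples Rab7 to kinesin for outward transport of late endosomes, had the lowest regenerating values of all these genes, -2.78, -4.27 and -3.16. Its difference from uninjured axons, -3.41 ± 0.90, did not pass (adjusted p = 0.121), while that from neurons, -3.09 ± 0.36, did (adjusted p = 0.000153). Against neurons, regenerating axons were lower in *Ehbp1* (-2.94) and higher in *Unc13d* (1.58) and *Sytl4* (1.32), both effectors of Rab27.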

How the data were processed

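Expression was measured on 13 arrays of rat cortical cultures, in 3 groups named by the titles. RMA is named in the submitters' processing notes. Its settings, and how its log2 signals became ratios, are not given in the sources used here. The deposited value table holds a linear ratio per probe set and array, and scanner files were not used here. The members and gene lists were chosen with earlier results of these data known.

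Symbols came from the array's platform annotation. All 97 Rab probe sets had an identifier in a table of the GRCr8 assembly with the same symbol. Log2 ratios were averaged over the single-symbol probe sets of a gene. Each group was compared with uninjured axons with lmFit and eBayes of limma 3.58.1 under R 4.3.3. The 3 arrays and the 6 uninjured arrays within their sets gave the spread, and uninjured array 7 stood for the reference at ratio 1 with the error of 1 array. That error was assigned and not measured. Regenerating axons and neurons were compared in a 2-group limma fit. The fits were tested on simulated data.

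Values per array are given for the 8 largest rises and 6 largest falls past the threshold in neurons, for genes past the threshold in the other comparisons (filled to 6 a direction by p), and for 17 fixed Rab genes. Of the regulator lists up to 2 genes per direction are named in each comparison, and *Rabac1*, *Trappc2* and *Fyco1* in regenerating axons were added after their values were seen. Same-numbered arrays correlated at r of -0.39 to 0.19 in their deviations, so numbers were not taken to pair arrays. Alternatives changed the probe set rule, centring, lowest ratios, moderation, reference error, replicate block and arrays used.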

Additional observations from a re-analysis of the deposited data

Results flagged for a closer look

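Among 41 Rab genes, 7 (17.1%) had 1 uninjured array far from the other 5, and 17.2% of all genes did by the same criterion. For independent values chance meets it in about 1 in 20 groups, whereas these values were centred within 2 sets of arrays. All 7 were high values. Uninjured array 5 read 0.81 for *Rab8a*, 0.73 for *Rab40b* and 0.50 for *Rab3b*, where the next highest arrays read 0.07, 0.04 and 0.05. Uninjured array 4 read 0.73 for *Rab12* and 0.34 for *Rab3c*, beside next values of 0.11 and 0.10. Uninjured array 1 read 0.58 for *Rab27b* (next 0.07) and uninjured array 3 read 0.46 for *Rab33a* (next 0.08).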

How the results depend on the processing

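Of the 28 Rab genes that were higher in neurons, 26 passed under all 16 alternatives, as did 5 of the 6 that were higher in uninjured axons. The shares of all genes called under the alternatives are not given here, so the counts below are not set against them. The count higher in uninjured axons became 10 with no error for the reference. When probe sets were tested singly, 12 genes had at least 1 probe set higher in uninjured axons. Among them were *Rab1b*, *Rab5b*, *Rab15* and *Rab34*, which also had a probe set higher in neurons. In regenerating against uninjured axons no Rab gene passed as higher or lower. The count lower became 6 with a reference error of 3 arrays, and with no reference error the counts were 10 lower and 5 higher. With the replicate number as a block it became 3, namely *Rab1a* (adjusted p = 0.0289), *Rab11a* (0.0466) and *Rab4a* (0.0483). For neurons the block gave 30 Rab genes higher and 8 higher in uninjured axons. It also called *Rab27b* as higher in uninjured axons than in neurons (-0.52, 0.0280), and it ended the calls of *Rab7b* (0.0788) and *Rab27b* (0.0534) between regenerating axons and neurons. The arrays share only a number.

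Between regenerating axons and neurons, 8 genes higher became 13 with arrays shifted to the same median. When probe sets were tested singly, 15 genes had at least 1 probe set higher in regenerating axons. *Rab7b* turned to -0.038 (adjusted p = 0.829) with its highest probe set. Of 17 regulators and effectors higher in uninjured axons, the shifted median made 27. Leaving out 1 array at a time gave 26 to 33 Rab genes higher in neurons and 6 to 7 higher in uninjured axons, 0 higher and 0 to 1 lower in regenerating axons, and 6 to 8 higher and 30 to 37 lower in regenerating axons than in neurons. For other changes the cause was not tested. Ratios without signal levels do not show which Rab probe sets were above background.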

Other observations

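Rab-like genes, relatives that the name rule leaves out, also went both ways. *Ift22*, a small GTPase of ciliary transport, was higher in uninjured axons than in neurons (-1.30 ± 0.18, limma adjusted p = 0.000367), with neuron arrays at -1.24, -1.22 and -1.45. A higher background on the axon arrays cannot be told apart from this. *Rabl2* was higher in neurons (1.41 ± 0.29, adjusted p = 0.00257), with neuron arrays at 1.39, 1.25 and 1.58. *Ift27*, *Rabl3* and *Rabl6* did not pass, at 0.77 ± 0.36, 0.41 ± 0.35 and 0.10 ± 0.19. None of the 5 passed in regenerating axons, where *Rabl3* read 0.59, 0.82 and 0.58 (0.66 ± 0.20, adjusted p = 0.167).

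The platform gives 3 more probe sets to *Rab1a* and *Rab1b* together, which the rule of a single symbol leaves out. Their neuron arrays read -0.43, -0.65 and -0.59 in the first, 1.39, 0.85 and 2.19 in the next, and 2.03, 1.27 and 2.78 in the last. In regenerating axons they read -0.29, -0.27 and -0.30, then 0.29, -0.18 and 0.01, and then 0.72, 0.23 and 0.48. Neither the neuron values near 5 nor the regenerating values near -1.5 of the *Rab1a* probe set appear in these 3.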
